A study of Homo sapiens with 12 samples.

Results

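The data described here are the untreated cultures of 2 human cell lines, HT-29 from a colorectal cancer and LAD2 from mast cells, each sequenced without the other line. All samples labelled HT-29 alone or LAD2 alone were taken, which gave 6 of the 12 samples of the series, with 3 libraries of HT-29 alone and 3 of LAD2 alone. The other 6 samples are the same lines in direct coculture, the condition whose effect on cancer cells the series was made to study. HT-29 was kept in McCoy 5A medium with fetal bovine serum and its RNA was taken with an RNeasy mini kit. LAD2 was kept in SP34 medium with its nutrient supplement and its RNA was taken with an RNeasy micro kit, so that line, medium and extraction kit cannot be told apart in any difference given below. The labels give 12 hours for all 6 libraries, and no label says whether the libraries of a line are separate cultures, so that p-values reflect only the spread between the libraries at hand, which may be technical. Each line is 1 permanent culture.

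Cells of the gut epithelium are held together by cadherins, desmosomes and tight junctions, are braced by keratins of simple epithelium, and answer to growth factor receptors of the EGFR, MET and Eph families. Mast cells are blood cells that mature in tissues under stem cell factor, the ligand of the receptor KIT. They bind IgE through a receptor of high affinity and store histamine, serglycin-bound proteases and other mediators in granules that they release on activation.

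The markers used for the lines matched their labels, with 1 exception. Levels are counts per 1e6 counts of a scaled library (CPM). KRT8, a keratin of simple epithelium (ENSG00000170421, GRCh38 chromosome 12, 52897187 to 52949954), had 6329.8, 6394 and 5994 CPM in the HT-29 libraries, against 0.146, 0.0949 and 0.0445 CPM in the LAD2 libraries. KRT18, its partner in the filament (ENSG00000111057, GRCh38 chromosome 12, 52948871 to 52952901), had 3768, 3745 and 3546 CPM in the HT-29 libraries, against 0.0487, 0 and 0 CPM in the LAD2 libraries. EPCAM, an epithelial adhesion molecule (ENSG00000119888, GRCh38 chromosome 2, 47345158 to 47387601), had 759.6, 749 and 739.7 CPM in the HT-29 libraries, against 0.0487, 0 and 0 CPM in the LAD2 libraries. These 3 genes were high in every HT-29 library and at or below 0.146 CPM in every LAD2 library, and the lines did not overlap. CDH17, the liver and intestine cadherin (ENSG00000079112, GRCh38 chromosome 8, 94127171 to 94217303), had 1.76, 1.56 and 1.86 CPM in the HT-29 libraries, against 0.243, 0.142 and 0.178 CPM in the LAD2 libraries. The lines did not overlap here either, but CDH17 was low in both, so HT-29 is an epithelial line by its keratins and EPCAM rather than by CDH17.

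On the mast cell side, KIT (ENSG00000157404, GRCh38 chromosome 4, 54657918 to 54740715) had 0 counts in all 3 HT-29 libraries, against 4417, 4470.2 and 4472 CPM in the LAD2 libraries. CPA3, the granule carboxypeptidase (ENSG00000163751, GRCh38 chromosome 3, 148865256 to 148897196), had 0 counts in all 3 HT-29 libraries, against 3145, 3132 and 3572 CPM in the LAD2 libraries. TPSAB1, a tryptase (ENSG00000172236, GRCh38 chromosome 16, 1240696 to 1242554), had 0 counts in all 3 HT-29 libraries, against 2565, 2305 and 2431 CPM in the LAD2 libraries. HDC, which makes histamine (ENSG00000140287, GRCh38 chromosome 15, 50241947 to 50266026), had 0 counts in all 3 HT-29 libraries, against 2252, 2307 and 2069.7 CPM in the LAD2 libraries. None of these 4 genes had a count in HT-29, so the lines did not overlap. Against the limit that a count of 0 allows, 3 counts over the 3 libraries, KIT was at least 104740.0-fold lower in HT-29 and CPA3 was at least 77222-fold lower in HT-29.

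**Figure D1:**
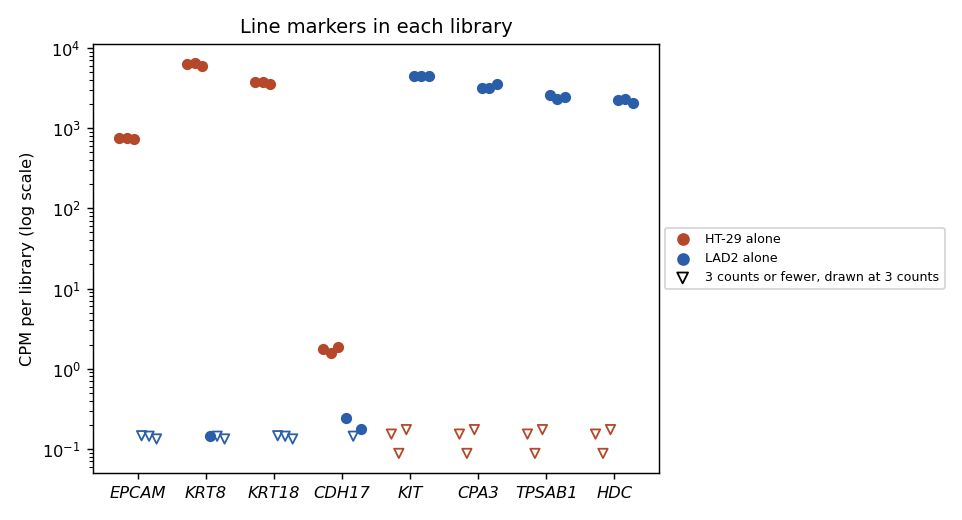
Level of the 8 line markers in each of the 6 libraries, in CPM on a log scale, with HT-29 in red left of LAD2 in blue. Open triangles are libraries with 3 counts or fewer, drawn at the level of 3 counts. The exception is KRT8 in LAD2 library 1, a filled point at that level (0.146 CPM). CDH17 is the 1 epithelial marker that stays near 1 CPM in HT-29.

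Total counts were 19.6, 34.1 and 17.2 M (M for 1e6) in the HT-29 libraries and 20.5, 20.8 and 22.6 M in the LAD2 libraries. A count of 0 in a library allows up to 0.0879 to 0.174 CPM in a HT-29 library and 0.133 to 0.146 CPM in a LAD2 library, and such limits cover counting error only. Mitochondrially encoded genes took 2.82% to 3.28% of the counts in HT-29 and 4.82% to 5.39% in LAD2. The median coefficient of variation between libraries, over genes with at least 50 CPM in both lines, was 1.93% in HT-29 and 3.69% in LAD2. Values below are means ± SD over the 3 libraries of a line unless a sentence gives each library, and folds are HT-29 over LAD2.

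The comparison of the lines asks which genes make up the identity of each and which are held in common. Nearly every gene tested differed. Of 15830 genes with enough counts for the test, 14626 were called at an adjusted p under 0.05 by edgeR's quasi-likelihood test with Benjamini-Hochberg adjustment, which is 92.4%. HT-29 was higher in 7101 of them (44.9% of those tested) and lower in 7525 (47.5%), and the median log2 fold change over all genes tested was -0.07. The libraries of the lines did not overlap in 92.3% of the genes tested. A call or a lack of overlap therefore says little about a gene, and the size of the difference is given throughout. A gene without counts in a line could enter the test only through the other line, which fixed its direction. Many lists below hold such members, and their counts are to be read with this limit and against the shares given here. A difference of 2-fold or more was found for 4391 genes higher in HT-29 (27.7%) and 5025 genes lower in HT-29 (31.7%). One of 10-fold or more was found for 1935 genes higher in HT-29 (12.2%) and 2444 genes lower in HT-29 (15.4%), and one of 100-fold or more for 914 (5.77%) and 973 (6.15%).

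Genes present in one line and nearly absent from the other were about as many on both sides. With at least 10 CPM in one line and at most 1 CPM in the other, 818 genes belonged to HT-29, 781 of them protein-coding, and 824 belonged to LAD2, 729 of them protein-coding. Of these, 319 HT-29 genes had 0 counts in all 3 LAD2 libraries and 346 LAD2 genes had 0 counts in all 3 HT-29 libraries. The genes that differed by 10-fold or more, a wider set, took unequal shares of the counts. Those at least 10-fold higher in HT-29 took 12.8% of the counts in each HT-29 library and 0.219% to 0.222% in the LAD2 libraries. Those at least 10-fold lower in HT-29 took 0.357% to 0.363% of the counts in the HT-29 libraries and 19.0% to 19.1% in the LAD2 libraries. Long intergenic noncoding genes differed by 10-fold or more in a larger share than protein-coding genes, 51.3% of 757 tested against 25.4% of 13042, with 115 higher and 273 lower in HT-29. The shares were not matched for level, and a gene with low counts may have entered the test only through the line where it is high.

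**Figure D2:**
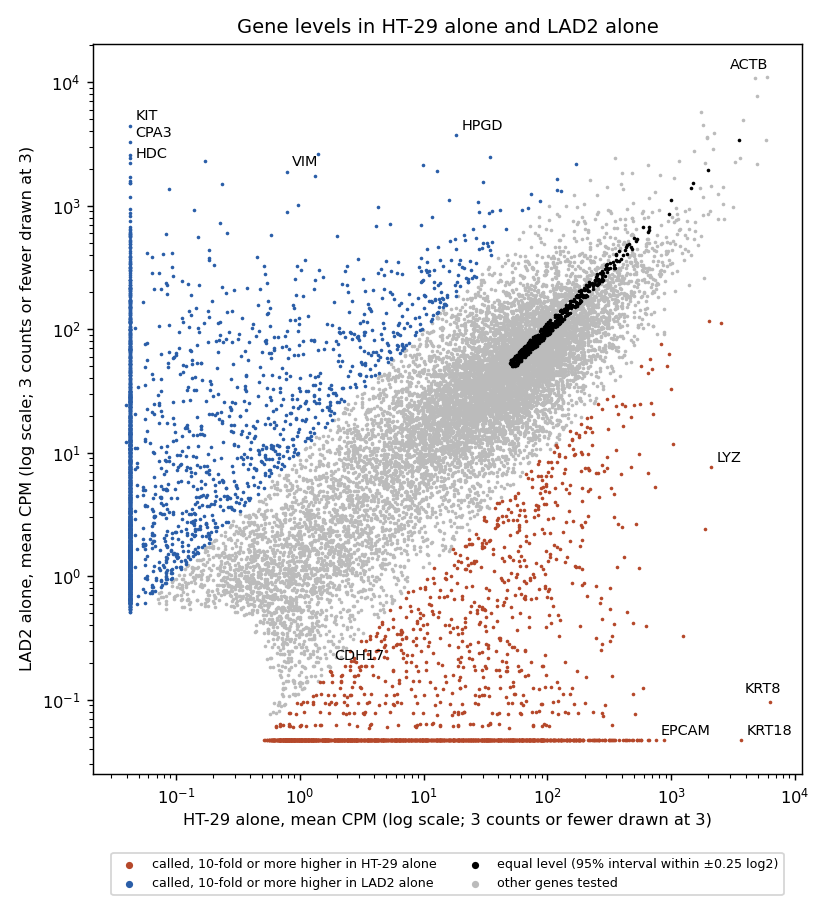
Mean level of each tested gene in HT-29 (x axis) and LAD2 (y axis), in CPM on log scales, with means from 3 counts or fewer drawn at 3 counts. Red genes are called and at least 10-fold higher in HT-29 (1935), blue genes are called and at least 10-fold lower in HT-29 (2444), and black genes are at equal level (457).

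Per kilobase of exon, the most abundant genes that were at least 50-fold higher in HT-29 were led by LYZ, KRT18 and KRT8. LYZ, the antibacterial enzyme lysozyme made by Paneth cells and macrophages among others, stood at 1188 CPM per kilobase in HT-29 and 4.31 in LAD2, though 34.0% of its exons overlap another gene. Keratins KRT8, KRT18 and KRT20 took 3 of the 15 places. S100A10, a partner of annexin A2, had 404 CPM per kilobase in HT-29 and 0.255 in LAD2, and ANXA2 itself had 214 CPM per kilobase in HT-29 and 0.274 in LAD2. Also among the 15 were MARCKSL1, the vesicle protein MAL2 (1257 ± 21.1 CPM in HT-29 and 0.329 ± 0.0544 CPM in LAD2), EPCAM, the selenium-dependent glutathione peroxidase GPX2 (442 ± 9.92 CPM in HT-29 and 0 counts in LAD2), the retinoic acid binding protein CRABP2, the kallikrein KLK6, S100A16, LGALS3BP and TRNP1.

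Of the corresponding 15 genes of LAD2, CPA3 led with 0 CPM per kilobase in HT-29 and 1776 in LAD2, before TPSAB1 and TPSB2, whose sequences are near copies, so that reads may be split between them. ARHGDIB, a GTPase inhibitor of blood cells, stood at 16.2 CPM per kilobase in HT-29 and 1174 in LAD2. RAC2, the haematopoietic Rac GTPase, stood at 3.91 CPM per kilobase in HT-29 and 843 in LAD2. HPGDS, the prostaglandin D synthase of mast cells, had 0 counts in HT-29 and 1579 ± 70.4 CPM in LAD2, and HPGD, which breaks prostaglandins down, had 18.3 ± 0.615 CPM in HT-29 and 3705 ± 231 CPM in LAD2. The other members were KIT, LAPTM5, LGALS1, HLA-B, FCER1G, HDC, CTSG and RHEX, and 8 of the 15 had 0 counts in HT-29.

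Most epithelial junction genes were higher in HT-29. Of 28 members tested, 26 were higher in HT-29, 23 of them by 10-fold or more, 2 were lower, and 9 had 0 counts in LAD2. Those 9 entered the test only through HT-29, which fixed their direction. The median log2 ratio was 9.82, against -0.07 over all genes tested. CDH1, E-cadherin, had 468, 457 and 456 CPM in the HT-29 libraries, against 0 counts in all 3 LAD2 libraries. Desmosome genes followed it, with 293 ± 4.55 CPM in HT-29 and 0 counts in LAD2 for the desmosomal cadherin DSG2, 217 ± 7.16 CPM in HT-29 and 0 counts in LAD2 for plakophilin 3 and 169 ± 0.834 CPM in HT-29 and 0 counts in LAD2 for desmoplakin. Tight junction genes were also higher, with 323 ± 5.28 CPM in HT-29 and 0.548 ± 0.0508 CPM in LAD2 for the claudin CLDN4 and 322 ± 3.11 CPM in HT-29 and 0.798 ± 0.227 CPM in LAD2 for LSR, a protein of tricellular contacts. The 2 exceptions were JUP, plakoglobin, which serves both desmosomes and adherens junctions, with 475 ± 4.66 CPM in HT-29 and 582 ± 22.3 CPM in LAD2, and EVPL, envoplakin, with 51.7 ± 1.54 CPM in HT-29 and 292 ± 16.6 CPM in LAD2. JUP was thus 1.23-fold lower in HT-29, although LAD2 had 0 counts of CDH1 and DSP.

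The promoters of DSP and DSG2 are shown as examples from genes found in HT-29 with 0 counts in LAD2, searched for the letters of an E-box. Each sequence gives the 250 bases before the RefSeq start on GRCh38.p14, plus strand, at chr6:7541421-7541670 for DSP and chr18:31497927-31498176 for DSG2. Both windows reach past the GENCODE gene starts, 7541575 for DSP and 31498043 for DSG2. Capitals mark CACCTG or its reverse complement CAGGTG, and these 2 genes were chosen because their windows hold matches.
DSP: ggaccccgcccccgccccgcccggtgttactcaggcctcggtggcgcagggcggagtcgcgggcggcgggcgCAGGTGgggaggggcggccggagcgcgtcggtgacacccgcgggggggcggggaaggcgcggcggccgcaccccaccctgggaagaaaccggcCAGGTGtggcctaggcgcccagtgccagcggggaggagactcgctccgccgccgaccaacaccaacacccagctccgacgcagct
DSG2: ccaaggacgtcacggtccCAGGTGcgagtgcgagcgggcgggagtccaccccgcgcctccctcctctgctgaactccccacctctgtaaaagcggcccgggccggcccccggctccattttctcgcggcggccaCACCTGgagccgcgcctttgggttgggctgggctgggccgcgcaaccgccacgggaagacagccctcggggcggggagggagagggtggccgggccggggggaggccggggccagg
Each window holds 2 matches. On either strand, the letters CACCTG occur in 26.79% of 586 windows of protein-coding genes present in HT-29 only. For protein-coding genes present in LAD2 only, it is 14.83% of 573 windows. Of all 27305 windows, a set not limited to protein-coding genes, 17.51% hold the letters. A match of letters is not a binding site, and no binding was measured here.

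Keratins were higher in HT-29 in 7 of 8 members tested. KRT20, a keratin of differentiated gut epithelium, had 552 ± 10.7 CPM in HT-29 and 2 counts in LAD2, and KRT80 had 177 ± 7.75 CPM in HT-29 and 1 count in LAD2. KRT19 was the keratin that both lines held, with 727, 703 and 664 CPM in the HT-29 libraries, against 232, 221 and 249.8 CPM in the LAD2 libraries, so that its difference was only 2.98-fold higher in HT-29. KRT23 was low in both lines, with 0.900 ± 0.248 CPM in HT-29 and 0.810 ± 0.0337 CPM in LAD2, and was not called (edgeR quasi-likelihood test, Benjamini-Hochberg adjusted p = 0.41). KRT5 and KRT14, keratins of stratified epithelium, had too few counts to be tested, with 0 and 3 counts over the HT-29 libraries and 2 and 0 counts over the LAD2 libraries.

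Epithelial transcription factors were higher in HT-29 in 24 of 26 members tested and lower in 2, 1 of them by 10-fold or more, and 14 members had 0 counts in LAD2. These 14 entered the test only through HT-29, which fixed their direction. The other 4 of the 30 listed had too few counts to be tested. Among them were CDX1, with 18 counts in HT-29 and 0 in LAD2, and GATA4, with 0 counts in both lines. KLF5, a zinc finger factor of crypt cells, was the most abundant, with 399 ± 2.14 CPM in HT-29 and 2.51 ± 0.425 CPM in LAD2. EHF, an epithelial ETS factor, had 236 ± 5.20 CPM in HT-29 and 0 counts in LAD2, and SOX9, a factor of crypt and progenitor cells, had 163 ± 4.32 CPM in HT-29 and 0 counts in LAD2. The splicing regulators ESRP1 and ESRP2 stood at 220.1 and 83.3 CPM in HT-29, and both had 0 counts in LAD2. GRHL2, a regulator of junction genes, had 75.5 ± 2.58 CPM in HT-29 and 0 counts in LAD2, and the nuclear receptor PPARG had 76.2 ± 1.25 CPM in HT-29 and 0 counts in LAD2. CDX2, the usual master factor of intestinal identity, was by contrast low in HT-29, at 2.30 ± 0.494 CPM in HT-29 and 0 counts in LAD2. ATOH1, the factor of secretory cells, was 4.80-fold lower in HT-29, with 1.66 ± 0.130 CPM in HT-29 and 7.94 ± 1.15 CPM in LAD2.

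Enterocyte and brush border genes were present in part. Of 35 members, 20 could be tested, 17 of which were higher in HT-29 and 2 lower, and 15 had too few counts. The serine protease ST14, matriptase, had 651 ± 8.27 CPM in HT-29 and 0 counts in LAD2, its inhibitor SPINT2 had 596 ± 10.0 CPM in HT-29 and 0.125 ± 0.0559 CPM in LAD2, and the second inhibitor SPINT1 was found in both lines, with 307 ± 5.75 CPM in HT-29 and 122 ± 1.83 CPM in LAD2. VIL1, villin, had 128 ± 1.28 CPM in HT-29 and 0 counts in LAD2, with 44.0% of its exons shared with other genes. LGALS4, a galectin of the gut, had 362 ± 2.26 CPM in HT-29 and 1.19 ± 0.131 CPM in LAD2, and the carbonic anhydrase CA12 had 237 ± 3.52 CPM in HT-29 and 1 count in LAD2. FABP1, the fatty acid binding protein of absorbing cells, was among those not tested, with 13 counts over the HT-29 libraries and 3 over the LAD2 libraries. ANPEP, aminopeptidase N of the brush border and also of myeloid cells, was 1008-fold lower in HT-29, with 0.146 ± 0.127 CPM in HT-29 and 147 ± 4.28 CPM in LAD2.

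Mucin and goblet cell genes were higher in HT-29 in 16 of 18 members tested. The other 7 of the 25 members listed had too few counts to be tested. Among them were CLCA1, with 1 count in HT-29 and 0 in LAD2, and ZG16, with 0 counts in both lines. AGR2, a chaperone of mucin folding, had 260.4 ± 12.0 CPM in HT-29 and 0 counts in LAD2, the mucin MUC5AC had 76.2 ± 8.41 CPM in HT-29 and 0.0621 ± 0.0540 CPM in LAD2 and REG4 had 32.4 ± 1.41 CPM in HT-29 and 0 counts in LAD2. The 2 exceptions were MUC1, with 0.681 ± 0.204 CPM in HT-29 and 9.77 ± 0.846 CPM in LAD2, and SPINK4, a goblet cell peptide of the gut, with 0.155, 0.0883 and 0.0581 CPM in the HT-29 libraries, against 60.4, 63.2 and 63.6 CPM in the LAD2 libraries. SPINK4 was thus 621-fold lower in HT-29, with no overlap between the lines.

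Surface antigens of colon cancer were higher in HT-29 in 15 of 19 members tested, lower in 3 and not called in 1. CD24 had 529.6 ± 4.47 CPM in HT-29 and 0 counts in LAD2, CEACAM6 had 339.9 ± 4.44 CPM in HT-29 and 1 count in LAD2, TM4SF1 had 381 ± 6.75 CPM in HT-29 and 0 counts in LAD2 and TSPAN8 had 251 ± 5.61 CPM in HT-29 and 0 counts in LAD2. These were close to absent from LAD2. The tetraspanin CD9, the adhesion molecule CEACAM1 and LY6E were lower in HT-29, and CD9 had 126 ± 5.49 CPM in HT-29 and 410.1 ± 23.2 CPM in LAD2. CEACAM1 had 63.4 ± 1.88 CPM in HT-29 and 229 ± 0.875 CPM in LAD2.

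Wnt and crypt genes were higher in HT-29 in 15 of 16 members tested, all 15 by 10-fold or more. The other 7 of the 23 members listed had too few counts to be tested. Among them were OLFM4, with 0 counts in both lines, and LEF1, with 3 counts in HT-29 and 10 in LAD2. MYC, the growth regulator that Wnt signalling induces, had 335, 333 and 339 CPM in the HT-29 libraries, against 28.0, 29.6 and 28.8 CPM in the LAD2 libraries, which was 11.7-fold higher in HT-29. DKK1, a secreted Wnt inhibitor, had 231 ± 5.35 CPM in HT-29 and 1 count in LAD2, LGR4, an R-spondin receptor, had 159 ± 1.09 CPM in HT-29 and 0.123 ± 0.0473 CPM in LAD2, and the ubiquitin ligase RNF43 had 94.5 ± 1.87 CPM in HT-29 and 0.0641 ± 0.0555 CPM in LAD2, with 73.9% of its exons shared. AXIN2, the usual feedback target, had 71.6 ± 1.32 CPM in HT-29 and 3 counts in LAD2. CD44, the hyaluronan receptor, was the 1 member lower in HT-29, with 443 ± 10.8 CPM in HT-29 and 947 ± 37.6 CPM in LAD2.

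Growth factor receptors and ligands of the EGFR family were nearly all on the HT-29 side, with 19 of 20 members tested higher in HT-29 and 1 lower. The other 3 of the 23 listed, ERBB4, EPGN and FGFR1, had too few counts to be tested. MET, the receptor of hepatocyte growth factor, had 869, 878 and 882 CPM in the HT-29 libraries, against 0 counts in all 3 LAD2 libraries. EGFR had 141 ± 0.380 CPM in HT-29 and 0 counts in LAD2, its relative ERBB3 had 205 ± 6.08 CPM in HT-29 and 0.153 ± 0.0987 CPM in LAD2, and the EGFR ligands EREG and AREG had 180.4 and 148 CPM in HT-29, against 0 and 5 counts over the LAD2 libraries. The Eph receptors EPHB4 and EPHA2 had 294 and 181 CPM in HT-29, against 6 and 0 counts in LAD2. LAD2 thus held neither MET nor EGFR at this depth, where a count of 0 allows up to 0.0468 CPM over the group. INSR, the insulin receptor, was the 1 member lower in HT-29, with 14.2 ± 0.670 CPM in HT-29 and 28.8 ± 1.82 CPM in LAD2.

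The mast cell proteases were all lower in HT-29 among the 7 members tested, and 6 of them had 0 counts there. Those 6 could thus be tested only through LAD2, which fixed their direction. TPSB2, the second tryptase, had 0 counts in all 3 HT-29 libraries, against 2639.9, 2428 and 2656 CPM in the LAD2 libraries. CTSG, cathepsin G, had 0 counts in HT-29 and 642 ± 48.0 CPM in LAD2, and the tryptase TPSD1 had 0 counts in HT-29 and 454 ± 32.0 CPM in LAD2. CMA1, chymase, was much lower than the tryptases in LAD2, with 0 counts in HT-29 and 18.5 ± 1.47 CPM in LAD2. LAD2 therefore held RNA of tryptases, carboxypeptidase and cathepsin G together, with chymase at a small fraction of them. Per kilobase of exon, CMA1 stood at 0 CPM per kilobase in HT-29 and 19.7 in LAD2, against 0 CPM per kilobase in HT-29 and 1776 in LAD2 for CPA3. GZMA, GZMB and PRSS33 had too few counts to be tested.

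Histamine and granule storage genes were lower in HT-29 in 22 of 24 members tested, 13 of them by 10-fold or more. SLC18A2, the transporter that loads histamine into granules, had 0 counts in HT-29 and 1174 ± 26.0 CPM in LAD2, with 56.1% of its exons shared with other genes, and SRGN, serglycin, had 1 count in HT-29 and 337 ± 17.9 CPM in LAD2. RAB27B, a GTPase of granule release, had 27.5 ± 0.624 CPM in HT-29 and 1070.2 ± 9.82 CPM in LAD2. CD63, a tetraspanin of granules and lysosomes, was found in both lines, with 363 ± 7.81 CPM in HT-29 and 658 ± 29.8 CPM in LAD2, and was 1.81-fold lower in HT-29. Cathepsin D (CTSD) had 171 ± 5.55 CPM in HT-29 and 2183 ± 92.2 CPM in LAD2, which was 12.7-fold lower in HT-29, with 52.7% of its exons shared. The 2 members higher in HT-29 were CTSZ, with 241 ± 6.50 CPM in HT-29 and 26.0 ± 1.93 CPM in LAD2, and HNMT, which inactivates histamine by methylation, with 12.7, 13.1 and 12.7 CPM in the HT-29 libraries, against 0 counts in all 3 LAD2 libraries. In these libraries counts of HNMT were thus found in HT-29 only and counts of HDC in LAD2 only.

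The IgE receptor and its proximal signalling genes were lower in HT-29 in 33 of 34 members tested, 23 by 10-fold or more. Of the receptor's chains, the alpha chain FCER1A had 0 counts in HT-29 and 91.5 ± 7.65 CPM in LAD2, the beta chain MS4A2 had 1 count in HT-29 and 746 ± 16.6 CPM in LAD2 and the gamma chain FCER1G had 1 count in HT-29 and 553 ± 25.2 CPM in LAD2. The Tec-family kinase BTK had 0, 0.0294 and 0 CPM in the HT-29 libraries, against 1496, 1548 and 1569 CPM in the LAD2 libraries. The adaptor LCP2, or SLP-76, had 0 counts in HT-29 and 585 ± 7.84 CPM in LAD2, and the kinase PRKCB had 0 counts in HT-29 and 387 ± 10.1 CPM in LAD2. FYN, a Src-family kinase found in many cell types, was the 1 member higher in HT-29, with 17.1 ± 0.720 CPM in HT-29 and 2.03 ± 0.101 CPM in LAD2.

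Promoters of 3 genes found in LAD2 with at most 1 count in HT-29 are shown next as examples, searched for the letters of a GATA site. Each is the 250 bases before the RefSeq start on GRCh38.p14, plus strand, at chr3:148865046-148865295 for CPA3, chr11:60088414-60088663 for MS4A2 and chr1:159302086-159302335 for FCER1A. By the GENCODE gene starts, the CPA3 window reaches into the gene (start 148865256) and the MS4A2 window lies within it (start 60088261). Capitals mark AGATAA, the core that GATA factors recognise, or its reverse complement TTATCT, and in FCER1A also CAGGTG, and the 3 genes were chosen because their windows hold a match.
CPA3: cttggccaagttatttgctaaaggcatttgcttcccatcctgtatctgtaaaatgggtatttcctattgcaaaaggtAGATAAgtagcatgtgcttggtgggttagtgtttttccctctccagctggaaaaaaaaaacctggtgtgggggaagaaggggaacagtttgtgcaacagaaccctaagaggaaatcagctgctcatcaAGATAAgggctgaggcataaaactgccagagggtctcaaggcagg
MS4A2: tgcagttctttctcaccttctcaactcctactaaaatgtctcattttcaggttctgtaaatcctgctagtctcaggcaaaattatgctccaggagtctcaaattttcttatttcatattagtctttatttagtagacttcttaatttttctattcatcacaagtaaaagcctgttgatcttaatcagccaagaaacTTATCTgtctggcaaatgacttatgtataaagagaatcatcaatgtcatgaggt
FCER1A: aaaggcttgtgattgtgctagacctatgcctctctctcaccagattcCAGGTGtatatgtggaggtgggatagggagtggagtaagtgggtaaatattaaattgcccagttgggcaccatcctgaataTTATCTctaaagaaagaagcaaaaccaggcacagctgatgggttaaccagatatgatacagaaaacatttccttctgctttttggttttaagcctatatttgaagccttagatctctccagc
CPA3 holds 2 matches to the GATA core, and MS4A2 and FCER1A hold 1 each. The letters AGATAA, on either strand, occur in 5.63% of 586 windows of protein-coding genes present in HT-29 only. For protein-coding genes present in LAD2 only, it is 9.42% of 573 windows, and for all 27305 windows 9.37%. Windows of LAD2 genes therefore held the letters about as often as all windows, which are not limited to protein-coding genes. No binding was measured here.

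Mast cell surface receptors were lower in HT-29 in 25 of 26 members tested, and 13 members had 0 counts in HT-29. These 13 could be tested only through LAD2, which fixed their direction. The other 6 of the 32 listed had too few counts to be tested, among them IL3RA and PTGER2, with 0 counts in both lines. SIGLEC6, an inhibitory sialic acid receptor, had 0 counts in HT-29 and 879.6 ± 43.9 CPM in LAD2. MRGPRX2, the receptor through which peptides and drugs activate mast cells without IgE, had 0 counts in all 3 HT-29 libraries, against 533, 539 and 516 CPM in the LAD2 libraries. The adhesion receptor ADGRE2 had 0.0832 ± 0.0230 CPM in HT-29 and 588 ± 31.6 CPM in LAD2, the complement receptor C3AR1 had 0 counts in HT-29 and 355 ± 13.7 CPM in LAD2, and the prostaglandin E receptor PTGER3 had 0 counts in HT-29 and 335 ± 12.9 CPM in LAD2. IL4R, the receptor chain for interleukin 4, was the 1 member higher in HT-29, with 64.4 ± 3.77 CPM in HT-29 and 52.7 ± 3.18 CPM in LAD2, which is a difference of 1.22-fold higher in HT-29.

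Transcription factors of blood cells were lower in HT-29 in 23 of 28 members tested and higher in 5. The other 6 of the 34 listed had too few counts to be tested. Among them were KLF1, with 0 counts in both lines, and GFI1B, with 3 counts in HT-29 and 0 in LAD2. GATA2 had 33.4, 33.6 and 33.6 CPM in the HT-29 libraries, against 894, 835 and 866 CPM in the LAD2 libraries. FLI1, an ETS factor, had 0 counts in HT-29 and 489 ± 9.95 CPM in LAD2, TAL1 and its partner LYL1 had 0 counts in HT-29 and 203 ± 1.64 CPM in LAD2 and 0.0636 ± 0.0373 CPM in HT-29 and 388 ± 19.9 CPM in LAD2, and the myeloid factor SPI1, or PU.1, had 0 counts in HT-29 and 120.1 ± 7.06 CPM in LAD2. MYB, which gut crypt cells also use, was found in both lines, with 45.9 ± 1.89 CPM in HT-29 and 342 ± 9.27 CPM in LAD2. The 5 members higher in HT-29 were CEBPA (46.7 ± 1.92 CPM in HT-29 and 0.201 ± 0.0613 CPM in LAD2), CEBPB (136 ± 4.53 CPM in HT-29 and 41.5 ± 3.39 CPM in LAD2), LMO4, IKZF3 and RUNX2.

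All 30 pan-leukocyte genes tested were lower in HT-29, each by 10-fold or more. Their median level was 0.058 CPM in HT-29 and 189 CPM in LAD2. Many could thus be tested only through LAD2, which fixed their direction. The other 2 of the 32 listed had too few counts to be tested. ITGB2 had 6 counts in HT-29 and 0 in LAD2, and SASH3 had 0 in HT-29 and 3 in LAD2. LAPTM5, a lysosomal protein of blood cells, had 0.171 ± 0.0661 CPM in HT-29 and 2287 ± 78.0 CPM in LAD2, and LCP1, the leukocyte actin bundler plastin 2, had 0.0885 ± 0.106 CPM in HT-29 and 1368 ± 36.5 CPM in LAD2. CD37, NCKAP1L, SLA and DOCK2 had 0 counts in HT-29. The haematopoietic forms ARHGDIB and RAC2 were lower but not absent in HT-29, at 34.1 and 9.89 CPM.

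Markers of other cell types were read because a culture could hold other cells, and their part in the differences was not tested. In bulk RNA, fewer cells of a type and less RNA per cell cannot be told apart. The lymphocyte list summed to 0.29 to 0.672 CPM in the HT-29 libraries and 733 to 783 CPM in the LAD2 libraries, nearly all of it CD4, with 0.225 ± 0.120 CPM in HT-29 and 729.5 ± 22.5 CPM in LAD2. CD3D, CD3E, CD3G and CD8A had 0 counts in both lines. Of 18 erythroid and megakaryocyte markers, 3 could be tested and all 3 were lower in HT-29. The list summed to 3.66 to 3.72 CPM in HT-29 and 144 to 152 CPM in LAD2, led by EPOR (3.00 ± 0.138 CPM in HT-29 and 82.4 ± 3.01 CPM in LAD2) and the delta globin gene HBD (0 counts in HT-29 and 52.7 ± 2.46 CPM in LAD2), with ALAS2 and PF4 at 0 in both lines. Of 8 basophil and eosinophil markers only IL5RA could be tested, with 0 counts in HT-29 and 34.3 ± 0.255 CPM in LAD2. EPX, PRG3 and CLC had 0 counts in both lines. The monocyte and neutrophil list summed to 2060 to 2120 CPM in HT-29, almost wholly LYZ, and to 28 to 30.1 CPM in LAD2, led by AZU1, with S100A8, S100A12, FCN1 and ELANE at 0 in both lines. Fibroblast and endothelial markers summed to 3.31 to 4.24 CPM in HT-29 and 1.38 to 2.05 CPM in LAD2. Neuroendocrine markers summed to 1.63 to 2.84 CPM in HT-29 and 15.2 to 16.6 CPM in LAD2, where SYP gave nearly all of it. Liver and stomach markers summed to at most 0.362 CPM in HT-29 and 0.0487 CPM in LAD2.

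**Figure D3:**
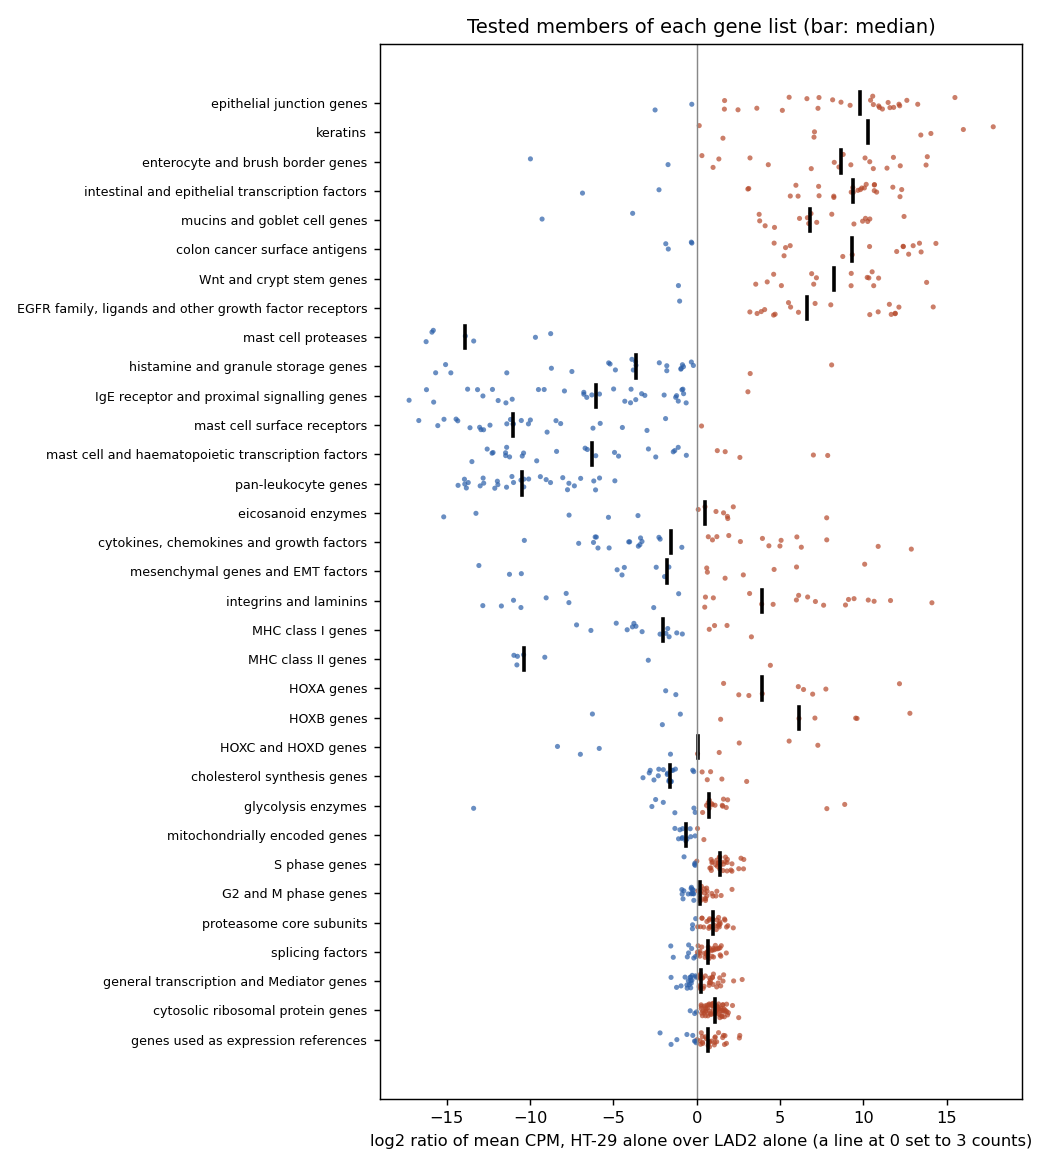
Log2 ratio of mean CPM, HT-29 over LAD2, for each tested member (point) of 33 gene lists, with the median of each list as a bar and lines at 0 counts set to 3 counts. Epithelial lists lie to the right (medians 6.61 to 10.26), mast cell and leukocyte lists to the left (medians -3.66 to -13.88), and the medians of S phase and cholesterol synthesis genes are 1.38 and -1.60.

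Vimentin and ZEB2, genes of the epithelial-mesenchymal transition named in the title of the series, were lower in HT-29. Of 30 mesenchymal genes and factors, 16 could be tested, with 6 higher and 9 lower in HT-29. Over all genes tested, 44.9% were higher and 47.5% lower, so these counts alone do not set the list apart. VIM, the intermediate filament of mesenchymal and blood cells, had 0.568, 0.559 and 1.22 CPM in the HT-29 libraries, against 1894, 1810.4 and 1953 CPM in the LAD2 libraries, with 24.4% of its exons shared with other genes. ZEB2, which represses E-cadherin and is also expressed in mast cells, had 0.0517, 0.0588 and 0 CPM in the HT-29 libraries, against 318, 317 and 316 CPM in the LAD2 libraries. SNAI2 had 1 count in HT-29 and 14.4 ± 0.258 CPM in LAD2, and S100A4 had 30.6 ± 1.22 CPM in HT-29 and 684 ± 33.8 CPM in LAD2. Each of these 4 was lower in HT-29 with no overlap between the lines. HT-29 was higher in SNAI1, with 3.11 ± 0.325 CPM in HT-29 and 0.124 ± 0.0238 CPM in LAD2, in TGFBI, with 50.6 ± 3.01 CPM in HT-29 and 0 counts in LAD2, and in the receptor AXL, with 5.78 ± 0.853 CPM in HT-29 and 0.0910 ± 0.0891 CPM in LAD2.

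Of 27 integrins and laminins tested, 18 were higher in HT-29, 14 of them by 10-fold or more, and 9 were lower, 7 of them by 10-fold or more. Over all genes tested, 44.9% were higher and 47.5% lower, and 12.2% and 15.4% were so by 10-fold or more. The epithelial integrin ITGA6 had 568 ± 3.69 CPM in HT-29 and 2 counts in LAD2, and its hemidesmosome partner ITGB4 had 517 ± 14.2 CPM in HT-29 and 2.64 ± 0.430 CPM in LAD2. ITGA9 had 0 counts in HT-29 and 310.5 ± 3.44 CPM in LAD2, and ITGA4 had 0 counts in HT-29 and 86.6 ± 4.25 CPM in LAD2. The beta chain ITGB1 was common to both lines, with 589 ± 5.52 CPM in HT-29 and 295 ± 8.91 CPM in LAD2, a difference of 2.00-fold higher in HT-29. ITGAE, an integrin chain known from lymphocytes and a partner of E-cadherin, was higher in HT-29, with 14.1 ± 0.767 CPM in HT-29 and 9.79 ± 0.619 CPM in LAD2. ITGB2, the beta chain of leukocyte integrins, had too few counts to be tested, with 6 counts over the HT-29 libraries and 0 counts in LAD2.

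Genes of antigen presentation were mostly lower in HT-29, against 47.5% lower and 44.9% higher over all genes tested. Among class I genes, 14 of 18 were lower and 4 higher, and HLA-B differed most in level, with 12.9, 12.8 and 12.9 CPM in the HT-29 libraries, against 1868, 1846 and 1993 CPM in the LAD2 libraries. B2M, the light chain common to class I molecules, had 399.9 ± 4.81 CPM in HT-29 and 1837 ± 95.1 CPM in LAD2. HLA-B was thus 148-fold lower in HT-29 and B2M 4.59-fold lower in HT-29, with no overlap between the lines. HLA genes are alike in sequence and vary between people, and the level of a single HLA gene also depends on how well reads of that allele map. The chaperone CALR and the disulfide isomerase PDIA3, which also serve general protein folding, were higher in HT-29. Among class II genes, 6 of 7 tested were lower in HT-29. HLA-DRB1 had 0 counts in HT-29 and 73.6 ± 2.20 CPM in LAD2 and HLA-DPA1 had 0 counts in HT-29 and 75.3 ± 4.42 CPM in LAD2. The 5 other class II members had too few counts to be tested. Among them, HLA-DRA, the partner chain of HLA-DRB1, had 0 counts in HT-29 and 2 counts in LAD2, HLA-DQA1 had 0 counts in HT-29 and 6 counts in LAD2, and CIITA, the regulator of class II genes, had 2 counts in HT-29 and 5 counts in LAD2. The invariant chain CD74, which accompanies class II molecules, was nearly absent from both lines, with 0.695 ± 0.219 CPM in HT-29 and 2 counts in LAD2.

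The HOX clusters, which record position along the body axis, differed between the lines by cluster and by gene. For comparison, 44.9% of all genes tested were higher in HT-29 and 47.5% lower. In the HOXA cluster 9 of 11 genes were higher in HT-29, among them HOXA13 (68.2 ± 0.823 CPM in HT-29 and 1 count in LAD2). In the HOXB cluster 6 of 9 were higher, led by HOXB9, with 344, 346 and 338 CPM in the HT-29 libraries, against 0.0974, 0.0474 and 0 CPM in the LAD2 libraries. HOXB2 went the other way, with 1.05 ± 0.384 CPM in HT-29 and 80.7 ± 3.57 CPM in LAD2, and HOXB13 had 2.48 ± 0.480 CPM in HT-29 and 10.3 ± 0.419 CPM in LAD2. Among HOXC and HOXD genes 4 were higher, 4 lower and 1 not called, at low levels. HOX genes overlap each other and their antisense transcripts, by 62.5% of exon length in HOXA7 and 33.0% in HOXB6, and the sources used here do not say whether the counting used strand.

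Some ligands lay on the other side from their receptors and others on the same side. Of 51 cytokines, chemokines and growth factors, 30 could be tested, with 14 higher and 16 lower in HT-29, shares close to the 44.9% and 47.5% of all genes tested. KITLG, stem cell factor, had 361, 349 and 347 CPM in the HT-29 libraries, against 0 counts in all 3 LAD2 libraries, while its receptor KIT was present in LAD2 only. CXCL8, interleukin 8, had 10.5 ± 1.64 CPM in HT-29 and 0 counts in LAD2. TGFB1 had 50.5 ± 1.46 CPM in HT-29 and 243 ± 11.9 CPM in LAD2 while its receptor TGFBR2 had 189 ± 4.71 CPM in HT-29 and 2.48 ± 0.481 CPM in LAD2, so that ligand and receptor lay on opposite sides. TGFA and its receptor EGFR were both higher in HT-29, with 102 ± 4.01 CPM in HT-29 and 6.94 ± 1.34 CPM in LAD2 for TGFA. Interleukin 18 and its receptor chain were both lower in HT-29, with 6.70 ± 0.525 CPM in HT-29 and 75.9 ± 3.30 CPM in LAD2 for IL18 and 0.149 ± 0.0287 CPM in HT-29 and 75.1 ± 7.60 CPM in LAD2 for IL18R1. ICAM1 and its integrin ITGAL were also both lower in HT-29, with 2.76 ± 0.271 CPM in HT-29 and 91.1 ± 1.40 CPM in LAD2 for ICAM1 and 1 count in HT-29 and 14.7 ± 0.697 CPM in LAD2 for ITGAL. LIF had 22.8 ± 1.19 CPM in HT-29 and 242 ± 17.8 CPM in LAD2, and its receptor LIFR was at 3 counts in HT-29 and 1 count in LAD2. TNFSF10, the death ligand TRAIL, had 3.35 ± 0.396 CPM in HT-29 and 203 ± 10.4 CPM in LAD2, and its receptor TNFRSF10B was found in both lines, with 59.7 ± 0.930 CPM in HT-29 and 101 ± 2.34 CPM in LAD2. MET stood alone, since HGF had 0 counts in HT-29 and 3 counts in LAD2. IL1RL1, the receptor of IL33, had 0.184 ± 0.0713 CPM in HT-29 and 377 ± 18.7 CPM in LAD2, and IL33 had 28 counts over the HT-29 libraries and 1 over the LAD2 libraries. CD47 did not pass the test, with 67.5 ± 1.05 CPM in HT-29 and 70.5 ± 2.46 CPM in LAD2 (edgeR quasi-likelihood test, Benjamini-Hochberg adjusted p = 0.173), whereas its receptor SIRPA had 0.113 ± 0.0598 CPM in HT-29 and 244 ± 3.62 CPM in LAD2. CCL23, a chemokine, had 0 counts in HT-29 and 55.2 ± 1.63 CPM in LAD2.

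Of 13 eicosanoid enzymes and related proteins tested, 7 were higher in HT-29, 5 were lower and 1 was not called. These counts alone do not set the list apart from all genes tested, of which 44.9% were higher and 47.5% lower. The 5 lower in HT-29 were HPGDS, HPGD, PTGS1, ALOX5AP and LTC4S, each by 10-fold or more. The cyclooxygenase PTGS1 had 9.62 ± 0.923 CPM in HT-29 and 378 ± 2.81 CPM in LAD2. The lipoxygenase ALOX5 had 20.5, 21.3 and 19.6 CPM in the HT-29 libraries, against 0, 0.142 and 0.134 CPM in the LAD2 libraries, and ALOX5AP, the protein that presents its substrate, had 0, 0.0883 and 0 CPM in the HT-29 libraries, against 283, 277 and 298 CPM in the LAD2 libraries. Each line therefore held RNA of 1 partner of this pair and next to none of the other. HPGD was 202-fold lower in HT-29. PTGES2 and PTGES3, which serve prostaglandin E synthesis, were higher in HT-29, with 887 ± 9.83 CPM in HT-29 and 247 ± 17.0 CPM in LAD2 for PTGES3.

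Some paralogs with like roles lay on opposite sides and others did not. The glucose transporter SLC2A1 had 567, 544 and 538 CPM in the HT-29 libraries, against 1.17, 0.949 and 1.38 CPM in the LAD2 libraries, and SLC2A3 had 0.0517, 0 and 0 CPM in the HT-29 libraries, against 180.4, 185 and 187 CPM in the LAD2 libraries. The lactate transporter SLC16A1 had 191 ± 2.25 CPM in HT-29 and 0.854 ± 0.192 CPM in LAD2, while SLC16A3 had 90.1 ± 2.82 CPM in HT-29 and 223 ± 6.41 CPM in LAD2. For the actin bundlers, PLS1, plastin 1 of the brush border, had 160.0 ± 0.192 CPM in HT-29 and 2.82 ± 0.167 CPM in LAD2 and LCP1, plastin 2, lay on the LAD2 side as given above. GATA6, the GATA factor of gut epithelium, had 38.2 ± 1.12 CPM in HT-29 and 0 counts in LAD2, and RUNX2 and RUNX3 had 6.00 ± 0.299 CPM in HT-29 and 0 counts in LAD2 and 0 counts in HT-29 and 60.2 ± 2.81 CPM in LAD2. For RAC1, the form found in most cells, the values were 439 ± 8.51 CPM in HT-29 and 191 ± 6.42 CPM in LAD2. The enolase ENO1 was 3.42-fold higher in HT-29 and ENO2 was 6.45-fold lower in HT-29. HK1, the first hexokinase, differed by only 1.07-fold lower in HT-29, while HK2 was 4.01-fold lower in HT-29. The phospholipases PLCG1 and PLCG2 were both lower in HT-29, with 60.6 ± 0.313 CPM in HT-29 and 235 ± 13.6 CPM in LAD2 for PLCG1 and 0.376 ± 0.0840 CPM in HT-29 and 214 ± 3.33 CPM in LAD2 for PLCG2. ARHGDIA, the widely expressed counterpart of ARHGDIB, was at equal level. These pairs were put together after the values were seen and do not measure how common opposite levels are.

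**Figure D4:**
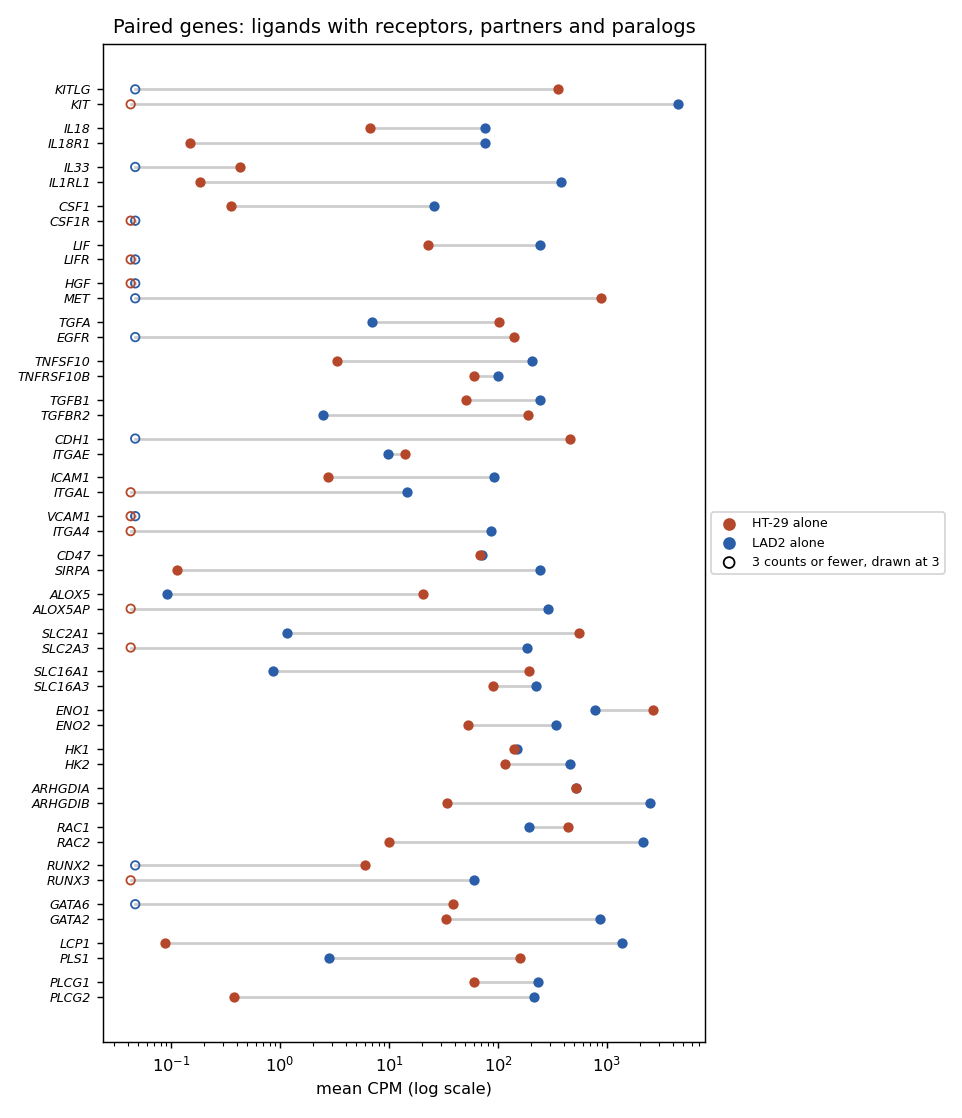
Mean level in CPM on a log scale of 24 pairs of ligand and receptor, partners or paralogs, in HT-29 (red) and LAD2 (blue), with open circles for 3 counts or fewer drawn at 3 counts. KITLG and KIT, ALOX5 and ALOX5AP, and SLC2A1 and SLC2A3 lie on opposite sides, TGFA and EGFR, IL18 and IL18R1, and PLCG1 and PLCG2 lie on the same side, and CD47, HK1 and ARHGDIA nearly coincide.

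In several lists of basic cell functions, namely S phase, G2 and M phase, proteasome, splicing, transcription, ribosomal protein, mitochondrially encoded and cholesterol synthesis genes, 0 members differed by 10-fold, whereas 3 of the glycolysis list did. Cytosolic ribosomal protein genes were higher in HT-29 in 62 of 65 members, with a median log2 ratio of 1.08. RPL4 had 2409.9 ± 10.6 CPM in HT-29 and 785 ± 33.6 CPM in LAD2, and RPS21 had 503 ± 12.6 CPM in HT-29 and 87.6 ± 1.26 CPM in LAD2. RPL15 and RPSA were at equal level and RPS28 was lower in HT-29. Many ribosomal protein genes have processed copies elsewhere in the genome, and reads may be split between them. Proteasome subunits were higher in 27 of 31 (median 0.98) and S phase genes in 30 of 35 (median 1.38). Among genes with at least 50 CPM in both lines, 54.1% were called higher in HT-29.

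DNA replication and mitosis genes did not move by the same amount. MCM4, a subunit of the replicative helicase, had 529.5 ± 10.5 CPM in HT-29 and 83.9 ± 0.572 CPM in LAD2, and CDC45, which activates it, had 104 ± 1.72 CPM in HT-29 and 14.6 ± 1.21 CPM in LAD2. Among G2 and M phase genes 19 were higher, 14 lower and 2 not called, with a median of 0.23. Over all genes tested, 44.9% were higher and 47.5% lower, and among genes with at least 50 CPM in both lines 54.1% and 37.9%. The counts alone thus do not set the G2 and M phase list apart. TOP2A had 496 ± 2.36 CPM in HT-29 and 578 ± 16.5 CPM in LAD2, CCNB1 had 275 ± 1.18 CPM in HT-29 and 329 ± 19.0 CPM in LAD2 and MKI67 had 492 ± 12.7 CPM in HT-29 and 409 ± 33.2 CPM in LAD2. TOP2A was 1.17-fold lower in HT-29 and MKI67 was 1.20-fold higher in HT-29.

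Glycolysis genes were higher in HT-29 in 15 of 22 members (median 0.75), led in level by GAPDH (3626 ± 16.9 CPM in HT-29 and 2414 ± 119 CPM in LAD2) and with LDHA at 1445 ± 22.1 CPM in HT-29 and 399 ± 24.2 CPM in LAD2. The 3 members that differed by 10-fold or more were membrane transporters, with SLC2A1 and SLC16A1 higher and SLC2A3 lower in HT-29. Cholesterol synthesis genes went the other way, lower in HT-29 in 20 of 25 (median -1.60). Among genes with at least 50 CPM in both lines, 54.1% were called higher in HT-29 and 37.9% lower. HMGCS1, which makes HMG-CoA at the start of the pathway, had 346, 357 and 351 CPM in the HT-29 libraries, against 2399, 2409.6 and 2484 CPM in the LAD2 libraries, and LSS, which closes the sterol rings, was 9.34-fold lower in HT-29. SQLE, squalene epoxidase, was among the 5 higher in HT-29, with 791 ± 12.9 CPM in HT-29 and 277 ± 17.2 CPM in LAD2, and PMVK and NSDHL were also among them. Medium and serum differed between the lines, and their part in this result cannot be told apart. Mitochondrially encoded genes were lower in HT-29 in 10 of 13 (median -0.65), with MT-CO3 and MT-ATP8 at equal level and not called.

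Genes at equal level were sought as those with at least 50 CPM in both lines whose 95% interval of the log2 fold change lay within 0.25 of 0. There were 457, which is 14.8% of the 3097 genes with at least 50 CPM in both lines, and 456 of them were protein-coding. Among the same 3097 genes, 1675 were called higher in HT-29 (54.1%) and 1175 lower (37.9%), so that equal levels were the exception also among shared genes. Of the 457, 210 were also called, with differences inside the limit.

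The 15 whose intervals reached least far from 0 belonged to several functions. PAK2, a kinase of the cytoskeleton, had 235, 235 and 228 CPM in the HT-29 libraries, against 229.9, 229.7 and 238 CPM in the LAD2 libraries, and its log2 fold change was 0.00 with an SE of 0.04. DNM2, dynamin 2 of endocytosis, had 208, 210.0 and 209 CPM in the HT-29 libraries, against 212, 211 and 207 CPM in the LAD2 libraries. ADAR, which edits adenosine to inosine in double-stranded RNA, had 357, 357 and 360.3 CPM in the HT-29 libraries, against 359, 365 and 358 CPM in the LAD2 libraries. In each of these 3 genes the libraries of the lines overlapped. ARHGDIA had 516 ± 4.05 CPM in HT-29 and 515 ± 16.2 CPM in LAD2, WASF2, which drives actin branching, had 284 ± 5.61 CPM in HT-29 and 283 ± 7.71 CPM in LAD2, and AP3M1 of the AP-3 adaptor had 121 ± 3.25 CPM in HT-29 and 121 ± 4.24 CPM in LAD2. The poly(A) polymerase PAPOLA had 256 ± 4.67 CPM in HT-29 and 255 ± 10.7 CPM in LAD2 and the phosphatase PPP1CC had 307 ± 8.77 CPM in HT-29 and 306 ± 19.0 CPM in LAD2. TIMP1, an inhibitor of metalloproteinases, had 143 ± 4.38 CPM in HT-29 and 143 ± 7.69 CPM in LAD2, and GLUD1, glutamate dehydrogenase, had 189.8 ± 1.07 CPM in HT-29 and 190.4 ± 11.5 CPM in LAD2. AZIN1, PHF19, ATP5MC2 and CIZ1 were also among the 15.

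Of 35 genes in use as references for expression, 4 were at equal level, namely GUSB, PSMB4, RAB7A and C1orf43. By the test, 26 were called higher in HT-29, 6 lower and 3 not called, and RAB7A, at equal level, was also among the 6 called lower. Among all genes with at least 50 CPM in both lines, 54.1% were called higher and 37.9% lower. GUSB had 61.6, 62.0 and 60.9 CPM in the HT-29 libraries, against 58.9, 61.3 and 61.3 CPM in the LAD2 libraries. ACTB, beta actin, had 4936, 4779 and 4603 CPM in the HT-29 libraries, against 11187, 10553 and 10944 CPM in the LAD2 libraries, which was 2.28-fold lower in HT-29. GAPDH was 1.50-fold higher in HT-29, TFRC was 5.89-fold higher in HT-29 and B2M was 4.59-fold lower in HT-29. A level of any gene given relative to ACTB would thus differ from one relative to GAPDH by the difference of these 2 genes. Equal level here means an equal share of the counts of a library, since RNA per cell was not measured.

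**Figure D5:**
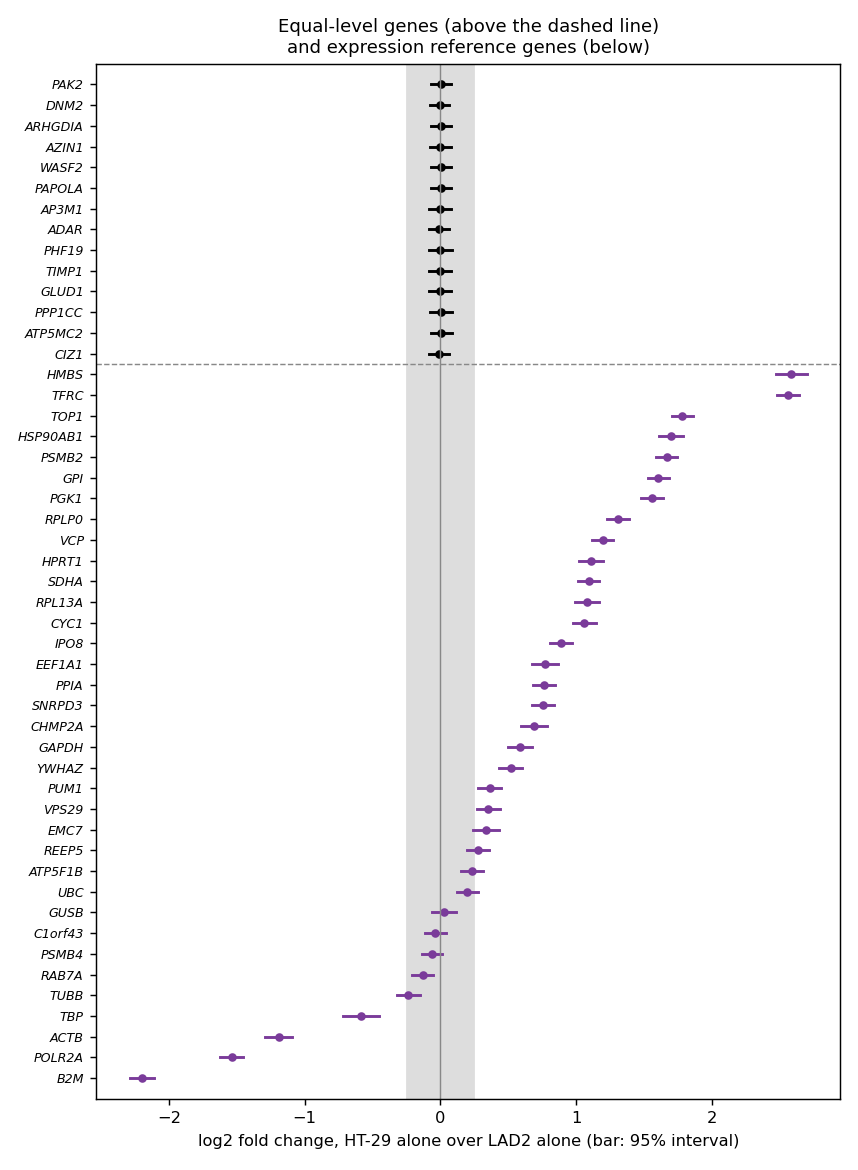
Log2 fold change, HT-29 over LAD2, with its 95% interval for 14 of the 15 equal-level genes (black) and the 35 expression reference genes (purple), with the band of 0.25 on either side of 0 in grey. GUSB, C1orf43, PSMB4 and RAB7A lie inside the band, and B2M, POLR2A and ACTB lie farthest to the left.

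Of the 100 protein-coding nuclear genes with the highest level per kilobase of exon in each line, 37 were in both sets. General transcription and Mediator genes had 28 of 47 tested members higher in HT-29, 15 lower and 4 not called (median 0.23), and splicing factors had 31 of 42 higher (median 0.66). Among genes with at least 50 CPM in both lines, 54.1% were called higher in HT-29 and 37.9% lower. The counts alone thus say little about the general transcription and Mediator list. POLR2A, the largest subunit of RNA polymerase II, had 212 ± 6.73 CPM in HT-29 and 615 ± 46.0 CPM in LAD2, and HNRNPU, an RNA-binding protein of the nucleus, had 955 ± 8.21 CPM in HT-29 and 849 ± 14.1 CPM in LAD2.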

How the data were processed

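The deposited table holds raw counts per gene for all 12 samples, per the labels' column names, and the authors' counts carry no normalization. Tools named in the submitters' processing notes are STAR 2.7.10a, FastQC 0.11.9 and DESeq2 3.24.0, with the build hg38. The counting program, its annotation and its use of strand: not given in the sources used here. All 58721 identifiers matched 1 gene each of GENCODE release 29 once the version suffix, which left a stray digit on 12826 of them, was handled the same way on both sides. Coordinates (GRCh38) and exon lengths come from that release, and promoter sequences from RefSeq (GRCh38.p14). A gene's exons were called shared where another gene's exons cover them on either strand.

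Counts of HT-29 alone and LAD2 alone (3 libraries each) were fitted with edgeR 4.0.16 (R 4.3.3) after TMM scaling and filterByExpr, by the two-sided quasi-likelihood test and Benjamini-Hochberg adjustment, with no replicate block. An adjusted p under 0.05 made a call. Of 58721 genes, 15830 were tested, 42891 had too few counts, and 28995 had 0 counts in all 6 libraries. CPM are counts per 1e6 counts of the TMM-scaled library. The common biological coefficient of variation was 3.16%. Folds against 0 counts use 3 counts over the 3 libraries (0.0425 CPM in HT-29, 0.0468 CPM in LAD2) and are lower bounds, and list medians use the same limit. The SE of a fold change was taken from the F statistic and the 95% interval from the t distribution. The script was tested on simulated counts.

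Named genes are the 8 line markers, up to 5 called members of each list by level and up to 3 more by fold change at 5 CPM or more, the 15 most abundant called protein-coding genes per kilobase that are at least 50-fold higher in a line, and the 15 equal-level genes with the narrowest reach from 0. Y-linked genes and XIST were passed over, and some genes that the rule names are not reported here. Exceptions within a list, genes with too few counts and the 24 pairs were chosen after their values were seen. The lists and the members of this comparison were chosen with earlier results of these data known. Alternatives covered scaling, filter, DESeq2 1.42.0, limma 3.58.1 (voom), the replicate block, leaving out each library, and the limits for equal-level and line-only genes. Replicate numbers did not pair the samples: the correlations of the deviations from the group means of same-numbered libraries were -0.0111, -0.00779 and -0.0203.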

Additional observations from a re-analysis of the deposited data

How the results depend on the processing

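The number of genes called stayed within 1.5 times 14626 under each scaling, filter, tool and left-out library, from 14252 with DESeq2 to 17881 with no filter on low counts, where more genes were tested. Leaving out 1 library at a time gave 14579 to 14825 calls (7077 to 7278 higher and 7502 to 7576 lower in HT-29), 399 to 480 equal-level genes, 814 to 830 genes of HT-29 only and 809 to 828 genes of LAD2 only. With the replicate block, which the numbers do not warrant as a pairing, there were 14554 calls and 451 equal-level genes. The number of equal-level genes rests on its limits: it was 184 with an interval within 0.15, 1167 within 0.5, and 793 at 10 CPM or more. Of the 457, 329 were at equal level under each scaling and tool tried and 273 in every fit. With at least 50 CPM in the higher line, 362 genes were of HT-29 only and 350 of LAD2 only. Of 4754 values of 298 named genes under 16 alternative fits, 4733 counted as the same. For called genes this meant the same direction and the same side of the threshold. For equal-level genes not called it meant a shift no larger than the spread between libraries, whatever the sign. The other 21 belonged to 8 equal-level genes, among them PAK2, DNM2, ARHGDIA, WASF2, ADAR, PHF19 and CIZ1. Their fold changes near 0 moved by more than that spread without being called. The median log2 fold change of all genes tested was -0.07, and under the other scalings it ranged from -0.12 with upper-quartile scaling to -0.05 with DESeq2's size factors in edgeR. It was -0.13 with no filter, where more genes were tested.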

Other observations

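Chromosomes differed in their balance between the lines. Only tested protein-coding genes whose mean CPM, added over both lines, reached at least 20 were used here. Their median log2 ratio, HT-29 over LAD2, was 0.63 on chromosomes 7 and 20 and 0.53 on chromosome 11. Of these genes, 67.2%, 69.9% and 68.0% were higher in HT-29. They were the highest shares of the autosomes, followed by 64.6% on chromosome 15 and 60.5% on chromosome 2. The median was -0.46 on chromosome 14 and -0.33 on chromosome 22, with 34.4% and 41.1% of such genes higher in HT-29. These were the lowest shares, followed by 41.5% on chromosome 21 and 44.5% on chromosome 3. A share over all chromosomes together was not computed for these genes.

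Antisense genes differed by 10-fold or more in 37.8% of 821 tested, with 110 higher and 200 lower in HT-29. Whether the counting used strand is not given, so reads of overlapping genes may enter these counts. The share was not matched for level with other kinds of gene. Counts of long noncoding genes took 0.775% to 0.783% of the counts in the HT-29 libraries and 1.10% to 1.21% in the LAD2 libraries.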
